A study of Mus musculus with 20 samples.

Results

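DNA repair genes were followed in mouse oocytes as these left prophase arrest and went on to metaphase of the first meiotic division. Members were the genes of either deposited table whose symbol begins with Xrcc, Rad5, Fanc or Ercc, with Msh or Mlh and a digit, or with Parp and a digit, together with Brca1, Brca2, Atm, Atr, Ddb1, Ddb2, Blm, Nbn and Mre11a. The rule uses names and no measured value. It gave 49 genes of the 8114 listed, of which 48 were among the 7543 genes of the ribosome-bound table, 46 among the 7917 genes of the total RNA table, and 45 among the 7346 genes in both. Fancb, Rad51ap2 and Mlh3 had ribosome-bound values only and Xrcc3 total RNA values only. The symbol rule takes in some genes whose best known work is not repair, such as Ercc6l, a helicase of centromeric DNA bridges, and Rad54l2, a partner of the androgen receptor. Msh4, which acts in meiotic crossing over, is grouped under mismatch repair by its symbol only.

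Oocytes came from C57BL/6 females that carried Zp3-Cre and RiboTag, an allele which after Cre recombination puts an HA tag on a ribosomal protein. Zp3-Cre acts in growing oocytes, so tagged ribosomes should come from oocytes and not from follicle cells. All groups share this genotype, an age of 3 weeks, 5 IU of PMSG (a gonadotropin that drives follicle growth) 44 h before collection, removal of the cumulus cells, and culture in 1 µM cilostamide, which blocks a phosphodiesterase and so keeps oocytes arrested. Samples of 200 oocytes were taken at 0 h (prophase I) and, after release from cilostamide, at 2, 4 and 6 h (early, mid and late prometaphase I) and 8 h (metaphase I). At each time RNA bound to HA-tagged ribosomes and total RNA were each sequenced in 2 replicates, giving 20 libraries in 10 groups. The labels do not say whether the replicates came from separate animals or cultures, so the p-values measure the spread between these samples only, which may be technical. A sample is 200 oocytes in bulk, so fewer oocytes with a transcript and less of it in each cannot be told apart.

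Oocytes meet DNA damage at several points of their life. Programmed double-strand breaks are made and repaired by recombination before birth, and the arrested oocyte must then keep its genome for weeks or months. The repair pathways differ in what they mend. Double-strand breaks are sensed by the Mre11-Rad50-Nbn complex and the kinases Atm and Atr, then repaired by homologous recombination on a template or by direct end joining. Crosslinks go to the Fanconi anaemia proteins, mispaired bases to Msh and Mlh proteins such as Msh6, ultraviolet-type lesions to nucleotide excision repair and single-strand breaks to Parp1 and Xrcc1. A fully grown oocyte makes almost no new RNA, and protein output is set by which stored mRNAs are taken onto ribosomes. A known route for this is the cytoplasmic polyadenylation element (CPE), a short U-rich motif near the end of the 3′ UTR that is bound by Cpeb proteins and can lead to a longer poly(A) tail when meiosis resumes.

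The CPE matches in members that rose on ribosomes are shown first, to give the reader the letters behind the shares. Values over time are per gene, while the motif was read from 1 annotated transcript of each gene, which need not be the one the oocyte uses. TTTTAT and TTTTAAT were searched on the sense strand of the last 150 bases of the annotated 3′ UTR (GENCODE transcripts on GRCm38, the mm10 build of the deposited files). TTTTAT and TTTTAAT can share at most 1 base, and the end of TTTTAAT can be the start of AATAAA, the polyadenylation signal, which was counted separately. Of the 6 members that rose at 8 h and have a 3′ UTR of at least 150 bases, 4 held a CPE match, against 1 of 10 that fell and 5 of 26 that did neither. Over all genes with a full window a match was found in 27.7% (1868 of 6740), in 45.2% of those that rose, 13.9% of those that fell and 26.3% of the others. Over all members it was 10 of 42 (23.8%), and AATAAA was found in 26 of 42 (61.9%) against 68.3% of all genes. Each line gives 30 bases, 5′ to 3′ on the transcript's strand, with the match in capitals.
Brca2, chr5:150569697-150569726, plus strand: ctacaactatcaTTTTATatacaaaataaa
Fancm, chr12:65131980-65132009, plus strand: ctcaattctgaaTTTTATcagctggtgggc
Parp12, chr6:39086473-39086502, minus strand: tccaggtgtggaTTTTATgtcacaatgaga
Rad54l, chr4:116097006-116097035, minus strand: gcccaaaatttaTTTTATaagaaaaacttt
Rad51ap2, chr12:11462898-11462927, plus strand: acattaaagtatTTTTATgatcatataaac
The match starts 38 bases before the transcript's end in Brca2, 67 in Fancm, 81 in Parp12, 49 in Rad54l and 19 in Rad51ap2. Rad54l has 2 matches, of which the last is shown. Brca2 and Parp12 each had 1 AATAAA in the 150 bases, while Fancm, Rad54l and Rad51ap2 had none. Rad51ap2 is included because it rose at 6 h. Rad51c and Msh4 rose at 8 h with no match in their 150 bases, and Ddb2 and Msh6 had none in annotated 3′ UTRs of 92 and 87 bases. A match is a run of letters and not a shown binding site, and with 6 members in the rising group the shares are descriptions only. The 8 h rises of the 4 with a match each ended under some alternative setting given below. Beyond the total RNA change (limma, below), Fancm passed (0.94, adjusted p = 0.0466), but Brca2 (0.51, 0.0821), Parp12 (0.48, 0.0708) and Rad54l (-0.01, 0.994) did not. Among risers with no match Rad51c (1.44, 0.0126) and Msh6 (0.70, 0.0235) passed, but Msh4 (0.55, 0.304) and Ddb2 (0.66, 0.434) did not.

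Values are the authors' read counts scaled to near-equal library totals and are called normalised values here. Read numbers were inferred by taking the common step between the values of a library as 1 read. On that reading libraries held 27571236 to 51714900 reads in the listed genes, and a normalised value of 10 stood for 282 to 533 reads. The replicates of a group correlated at 0.949 to 0.973 over all ribosome-bound genes and 0.953 to 0.974 over all total RNA genes. Some libraries stood apart: ribosome-bound 4 h replicate 1 lay at -35.2 on the second principal component against -4.88 to 18.2 for the other libraries, and the total RNA replicates at 8 h lay at 20.2 and -25 on that component of their own table. The ribosome-bound 0 h replicates, which correlated least (0.949), lay at 11.3 and -28.6 on the third component. In total RNA 0 h replicate 1 lay at 23.4 on the third component, against -15.3 to 7.7 for the other libraries. The 0 h libraries are the baseline of all comparisons. Oocyte markers were listed for 10 of 10 genes on ribosomes and summed to 37019 and 45139 at 0 h and 20099 and 22743 at 8 h. In total RNA 9 of the 10 were listed, with sums of 14322 and 14871 at 0 h and 14243 and 15743 at 8 h. Of 12 granulosa and cumulus markers 4 were listed on ribosomes (Cyp19a1, Fshr, Nr5a2 and Serpine2), and of 10 markers of blood, stroma and endothelium 2 (Pecam1 and Tek). The granulosa and cumulus sum on ribosomes ran from 199 to 207 at 0 h and from 524 to 529 at 8 h. In total RNA 7 of the 12 were listed, Gja1, Inha and Inhba among them. Their sum there ran from 330.1 to 398 at 0 h and from 428 to 584 at 8 h. The part of these markers in the changes below was not tested.

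Changes were measured against 0 h as log2(value + 1) differences with limma, with standard errors (SE) from the fit. A gene is said to rise or fall where its Benjamini-Hochberg adjusted p over all genes of that comparison was below 0.05. The 4 comparisons of one RNA kind share the same 0 h libraries.

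On ribosomes more repair genes passed at each later time, in both directions from 6 h on. No member passed at 2 h, where 1.47% of all genes did by limma; 4 of 48 members had an unadjusted p below 0.05 there, against 1295 of 7543 genes. At 4 h 4 members rose and none fell, or 8.33% of members beside 15.7% of all genes (9.16% up and 6.56% down). Without 0 h replicate 2 the calls at 4 h were 2 up and 2 down, and without 4 h replicate 2 they were 2 up and 1 down. At 4 h 11 members had an unadjusted p below 0.05. At 6 h 5 rose and 6 fell, or 22.9% of members beside 27.9% of all genes (14.6% up and 13.3% down). At 8 h 8 rose and 12 fell, or 41.7% of members beside 42.1% of all genes (20.2% up and 21.8% down). The share of repair genes that changed was below that of all genes at 4 and 6 h and near it at 8 h, and the median change at 8 h was -0.11 for members and -0.06 for all genes. The counts by role are given below; they rest on 3 to 12 genes each and were not tested against one another.

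**Figure D1:**
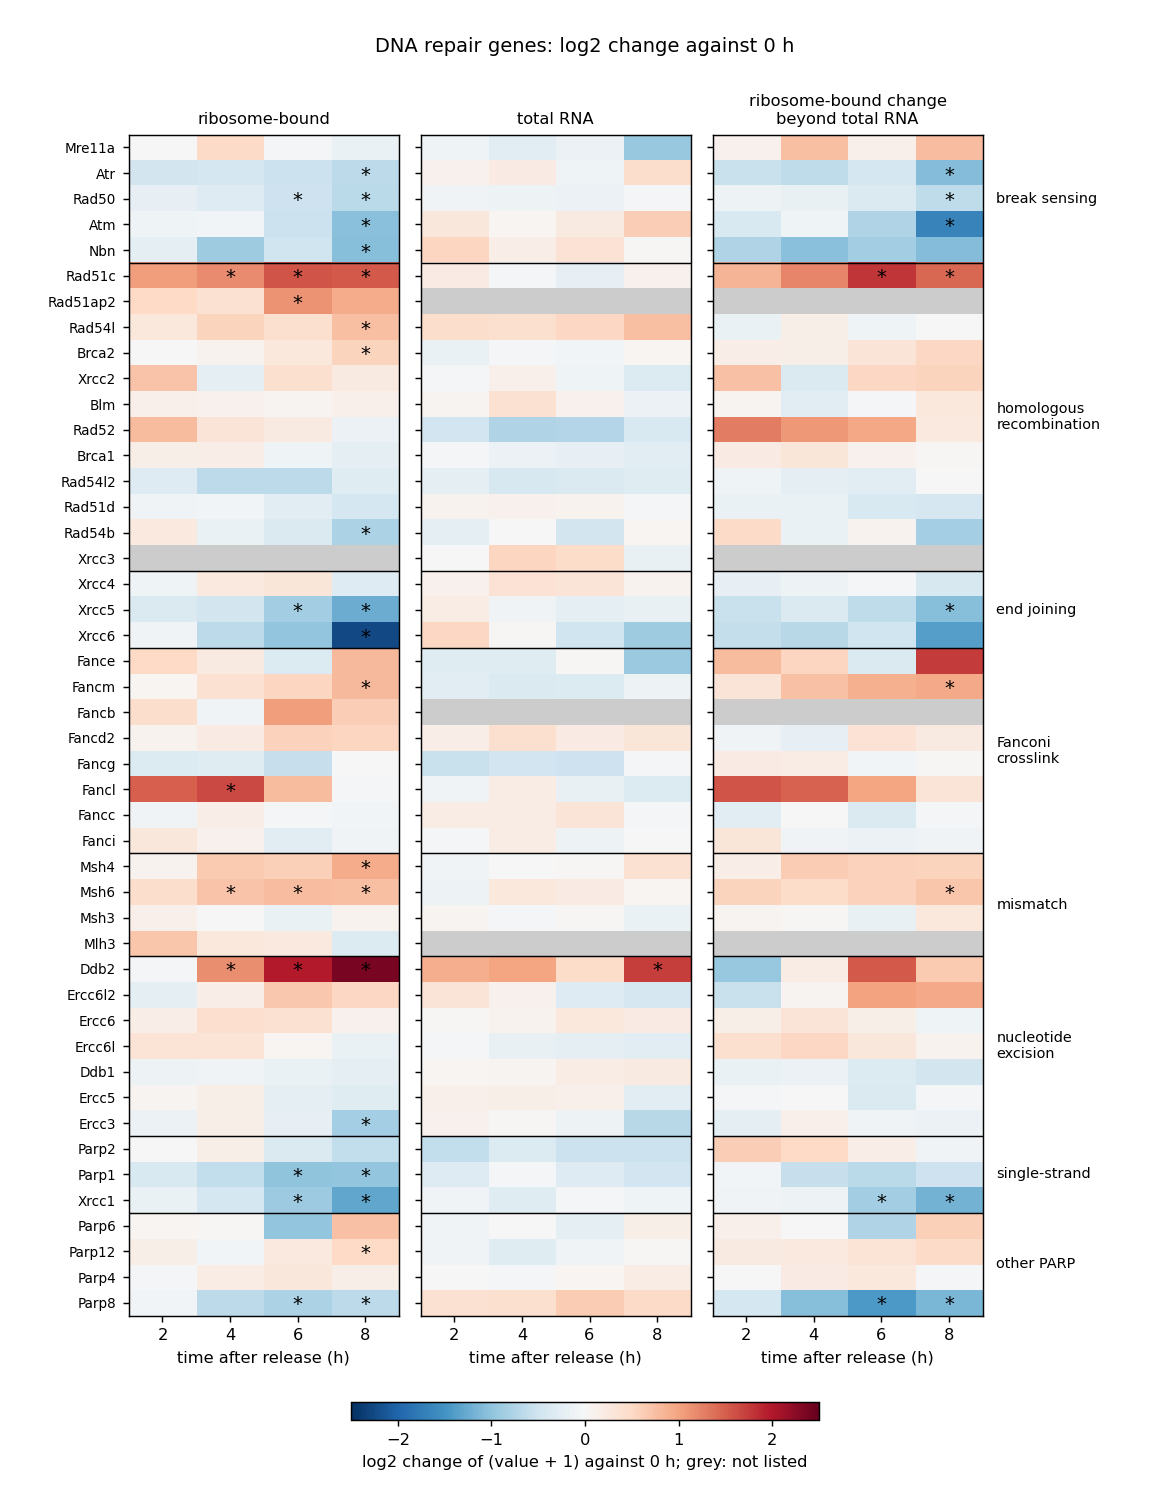
Log2 change of the normalised value + 1 against 0 h for 46 of the 49 DNA repair genes (rows, grouped by role) at 2, 4, 6 and 8 h (columns), on ribosomes (left), in total RNA (middle) and as the difference between both (right). Asterisks mark adjusted p below 0.05 and grey marks genes not listed. Among those drawn 19 ribosome-bound changes pass at 8 h against 1 in total RNA, where 42.1% and 3.97% of all genes pass.

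Of the break sensors and their kinases 4 of 5 fell on ribosomes at 8 h, with a median change of -0.67. Rad50, the coiled-coil ATPase that tethers broken ends (chr11:53649519-53707319, GRCm38), stood at 845 and 892 at 0 h, 778 and 725 at 2 h, 710.1 and 685 at 4 h, 634 and 578 at 6 h, and 493 and 603 at 8 h. All 8 later libraries lay below both 0 h libraries. The change was -0.52 ± 0.14 (SE, adjusted p = 0.0089) at 6 h and -0.67 ± 0.14 (adjusted p = 0.000836) at 8 h. The 6 h call did not hold without 6 h replicate 2 (adjusted p = 0.0895). Nbn, the subunit that brings Atm to the complex, measured 25.5 and 22.2 at 0 h, 18.2 and 22.4 at 2 h, 8.12 and 18.9 at 4 h, 15.4 and 17.7 at 6 h, and 8.8 and 13.3 at 8 h. Both 8 h values lay below both 0 h values, and the fall of -1.07 ± 0.41 had an adjusted p of 0.0425, which rose to between 0.0566 and 0.23 when any 1 of those 4 libraries was left out. Mre11a, the nuclease of the complex, did not pass. Its values were 33.2 and 29.7 at 0 h, 28.2 and 35.4 at 2 h, 51.4 and 37.8 at 4 h, 29.9 and 32 at 6 h, and 28.2 and 27.8 at 8 h, a change of -0.16 ± 0.28 (adjusted p = 0.669).

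Both kinases fell on ribosomes at 8 h. Atm, which answers double-strand breaks, was listed on ribosomes at 24.7 and 23.7 at 0 h, 20.6 and 24.7 at 2 h, 22.2 and 23.8 at 4 h, 13.6 and 19.7 at 6 h, and 11.6 and 10.7 at 8 h. The values stayed near 20 or above through 4 h and were lowest at 8 h in both replicates. The change was -1.05 ± 0.34 (adjusted p = 0.0179), and leaving out any 1 of the 4 libraries compared gave adjusted p of 0.05 to 0.0856. Atr, which answers stalled forks and single-stranded DNA, gave 169 and 227 at 0 h, 138 and 148 at 2 h, 175 and 120.4 at 4 h, 113 and 162 at 6 h, and 135 and 115 at 8 h. Both 8 h values were under both 0 h values, while 4 h replicate 1 lay within the 0 h range. The fall at 8 h was -0.65 ± 0.22 (adjusted p = 0.0234) and did not pass without 0 h replicate 2 (-0.44, adjusted p = 0.183) or 8 h replicate 2 (-0.53, adjusted p = 0.153).

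Homologous recombination genes went both ways, with 3 of 12 rising, 1 falling and a median change of -0.01 at 8 h. Rad51c, a gene needed for recombination repair (chr11:87376645-87404954), showed the largest rise of the role. It read 25.8 and 16.3 at 0 h, 44.3 and 42.4 at 2 h, 56.9 and 40.0 at 4 h, 54 and 74.2 at 6 h, and 54.6 and 69.1 at 8 h. All 8 later libraries were above both 0 h libraries. The change was 1.18 ± 0.28 at 4 h (adjusted p = 0.00871), 1.58 ± 0.28 at 6 h (0.000524) and 1.53 ± 0.28 at 8 h (0.000349). The 4 h call ended without 0 h replicate 2 (0.86, adjusted p = 0.0721) or 4 h replicate 1 (0.93, adjusted p = 0.125).

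Brca2, which acts at resected ends during strand invasion (chr5:150522630-150570329), measured 536 and 488 at 0 h, 511 and 514 at 2 h, 533 and 555 at 4 h, 623 and 612 at 6 h, and 665 and 838 at 8 h. Values stayed between 488 and 555 through 4 h and were above both 0 h values in all 6 h and 8 h libraries. Its change at 8 h was 0.55 ± 0.14 (adjusted p = 0.00467). This was 0.38 (adjusted p = 0.0849) without 8 h replicate 2, and 0.11 (adjusted p = 0.528) after a correction of each library for transcript length and GC content. Brca2 has one of the longest transcripts of the set, at 10724 bases and 42.4% GC. Brca1, its partner in resection and checkpoint control, gave 504 and 403 at 0 h, 476 and 529 at 2 h, 502 and 507 at 4 h, 386 and 453 at 6 h, and 354 and 417 at 8 h. Its 8 h and 0 h values overlapped, and the change of -0.23 ± 0.15 did not pass (adjusted p = 0.237), although it did under the length and GC correction (-0.49, adjusted p = 0.0125).

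Blm, the helicase that dissolves recombination intermediates, was listed at 163 and 160.3 at 0 h, 142 and 221 at 2 h, 156 and 193 at 4 h, 152 and 191 at 6 h, and 172 and 179 at 8 h. Both 8 h values were slightly above both 0 h values, with a change of 0.12 ± 0.20 (adjusted p = 0.672) that took the other sign, -0.26, under the length and GC correction. Rad54b, a DNA translocase, read 37.4 and 60.2 at 0 h, 55.9 and 56.5 at 2 h, 39 and 45.6 at 4 h, 28.7 and 46.6 at 6 h, and 26.7 and 27 at 8 h. The fall of -0.80 ± 0.29 (adjusted p = 0.0335) was lost without 0 h replicate 2, 8 h replicate 1 or 8 h replicate 2 (adjusted p = 0.283, 0.106 and 0.109). Its paralogue Rad54l rose, from 27.2 and 27 at 0 h to 51.8 and 41.1 at 8 h (0.75 ± 0.27, adjusted p = 0.0344). That call was lost when any 1 of these 4 libraries was left out, with changes of 0.58 to 0.91 and adjusted p of 0.0552 to 0.203. Rad51ap2 rose at 6 h only (1.13 ± 0.37, adjusted p = 0.0273), from 9.71 and 11 at 0 h to 28 and 20.4, and was 20.3 and 20.7 at 8 h (0.92, adjusted p = 0.0507); the 6 h call was lost without any 1 of its 4 libraries (adjusted p 0.0543 to 0.192).

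Rad51d, Rad54l2, Rad52 and Xrcc2 did not pass at any time. At 8 h Rad51d changed by -0.43, Rad54l2 by -0.31, Rad52 by -0.14 and Xrcc2 by 0.22, with adjusted p of 0.155 to 0.659 for Rad51d, Rad54l2 and Xrcc2 and 0.801 for Rad52. Rad52 had a mean of 18.6 ± 1.95 (SD, n = 2) at 0 h and values of 25.8 and 10.7 at 8 h, on both sides of that mean.

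Of the 3 end joining genes 2 fell at 8 h. Xrcc5 and Xrcc6 encode Ku80 and Ku70, which form the ring that binds broken ends. Xrcc5 (chr1:72307421-72394952) read 405 and 359 at 0 h, 304 and 287 at 2 h, 291 and 266 at 4 h, 213 and 206 at 6 h, and 179.6 and 143 at 8 h. Every later library was below both 0 h libraries, and the values at 6 and 8 h were below all those at 2 and 4 h. The change was -0.86 ± 0.16 at 6 h (adjusted p = 0.000589) and -1.25 ± 0.16 at 8 h (adjusted p = 8.82e-06). Xrcc6 (chr15:81987835-82040085) was less abundant, with 17.1 and 29.1 at 0 h, 19 and 23 at 2 h, 13 and 14.6 at 4 h, 14 and 8.17 at 6 h, and 5.15 and 2.83 at 8 h. The 4, 6 and 8 h values were all below both 0 h values. The fall at 8 h was -2.26 ± 0.43 (adjusted p = 0.000477), the largest of any member in that direction, and -1.62 with a pseudocount of 5 in place of 1. Both 8 h values of Xrcc6 were below 10, and genes that stayed below 10 throughout were left out. It was therefore listed because of its higher earlier values, so its fall is tied to that selection. The mean ribosome-bound value per kilobase of transcript was 149.6 for Xrcc5 at 0 h and 63.1 at 8 h, against 7 and 1.21 for Xrcc6. Xrcc4, the scaffold of the ligase, did not pass (-0.32 ± 0.32, adjusted p = 0.449).

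**Figure D2:**
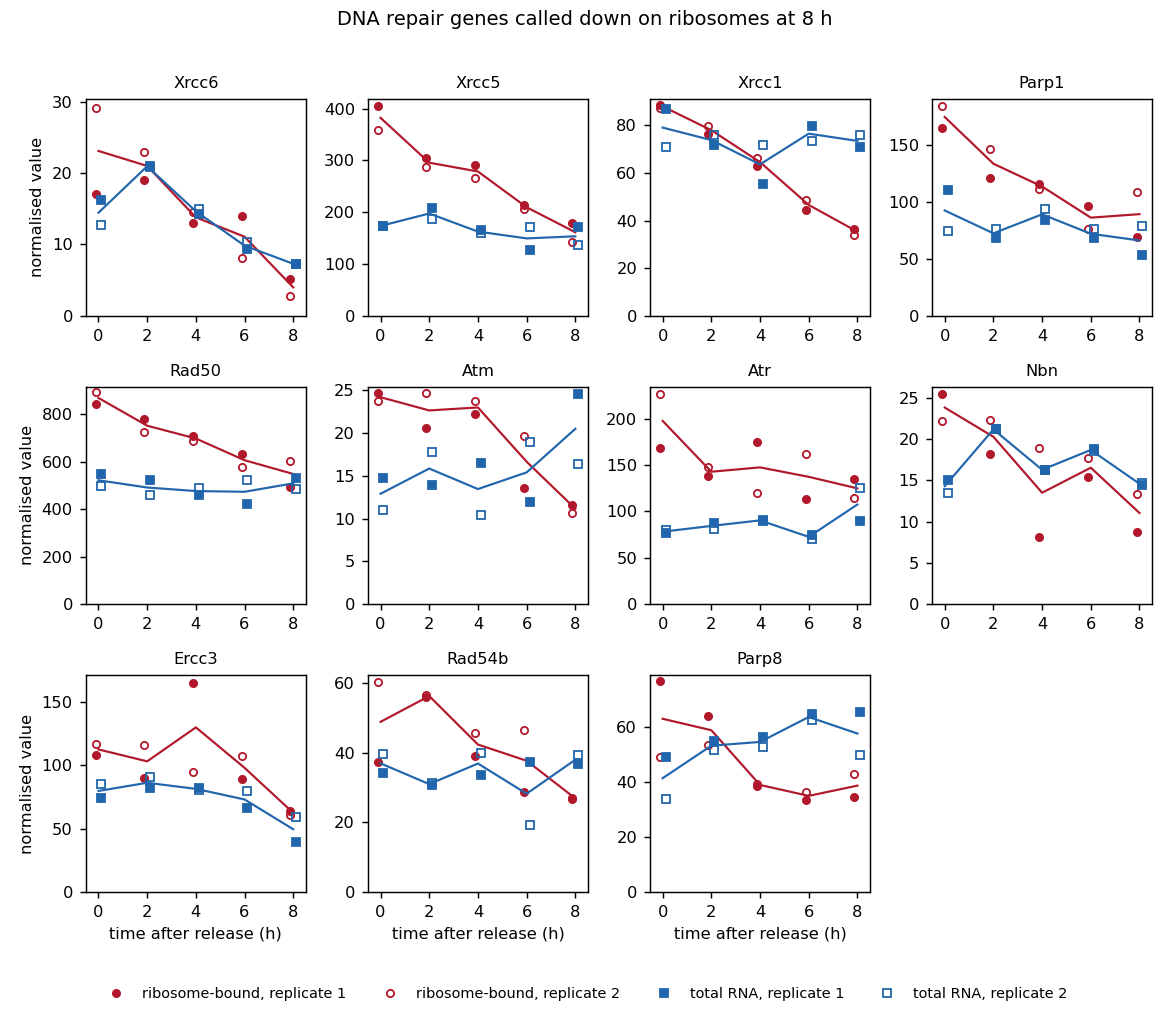
Normalised value in each library (points; filled, replicate 1; open, replicate 2) and group mean (line) over time after release for 11 of the 12 DNA repair genes that fell on ribosomes at 8 h, with ribosome-bound values in red and total RNA in blue, each panel from 0 on its own axis. Ribosome-bound Xrcc5 goes from 405 and 359 at 0 h to 179.6 and 143 at 8 h, while its total RNA is 173 and 174 at 0 h and 171 and 136 at 8 h.

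Of the single-strand break repair genes 2 of 3 fell at 8 h, with a median of -0.99 over the 3. Xrcc1, the scaffold of this pathway (chr7:24546289-24573440), measured 88.5 and 87.5 at 0 h, 76.4 and 79.6 at 2 h, 62.8 and 66.4 at 4 h, 44.5 and 48.7 at 6 h, and 36.7 and 34 at 8 h. Each time point lay wholly below the one before it. The change was -0.90 ± 0.21 at 6 h (adjusted p = 0.00401) and -1.29 ± 0.21 at 8 h (adjusted p = 0.000111). Parp1, the enzyme that marks breaks with poly(ADP-ribose), gave 165 and 184 at 0 h, 121 and 146 at 2 h, 116 and 111 at 4 h, 96 and 76.4 at 6 h, and 69.5 and 109 at 8 h. All later libraries were below both 0 h libraries, and the change was -1.01 ± 0.21 at 6 h (adjusted p = 0.00199) and -0.99 ± 0.21 at 8 h (adjusted p = 0.0013). Parp2, its relative, was 56.1 and 35.7 at 0 h and 25.5 and 32.7 at 8 h, which did not pass (-0.62 ± 0.30, adjusted p = 0.103).

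Among the genes grouped under mismatch repair by an Msh or Mlh symbol, Msh4 and Msh6 rose on ribosomes. Msh6, a mispair recognition protein (chr17:87975062-87990892), read 154 and 182 at 0 h, 222 and 231 at 2 h, 279.8 and 274 at 4 h, 284 and 289 at 6 h, and 261 and 305 at 8 h. All later libraries exceeded both 0 h libraries and the level was near its highest from 4 h on. The rise was 0.72 ± 0.15 at 4 h (adjusted p = 0.00394), 0.77 ± 0.15 at 6 h (0.00123) and 0.75 ± 0.15 at 8 h (0.000846). Msh4, which acts in meiotic crossing over, stood at 29.8 and 27.7 at 0 h, 29.8 and 31.2 at 2 h, 42.3 and 49.4 at 4 h, 38.2 and 50.8 at 6 h, and 60.7 and 50.8 at 8 h. Values from 4 h on were above all those at 0 and 2 h. The rise at 8 h was 0.93 ± 0.26 (adjusted p = 0.0076); it was 0.80 (0.0703) without 8 h replicate 1 and 0.65 (0.0536) under the length and GC correction. Msh3 (0.09, adjusted p = 0.737) and Mlh3 (-0.35, adjusted p = 0.733) did not pass at 8 h.

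Nucleotide excision repair gave the largest rise among all members, that of Ddb2, the damage-binding subunit that finds ultraviolet lesions (ENSMUSG00000002109.14, chr2:91211572-91236982, minus strand). On ribosomes Ddb2 measured 8.33 and 10.8 at 0 h, 8.67 and 9.87 at 2 h, 18.2 and 28.1 at 4 h, 28.5 and 57.2 at 6 h, and 57.8 and 49.7 at 8 h. The 2 h values lay inside the 0 h range and every value from 4 h on lay above it. The change was 1.17 ± 0.37 at 4 h (adjusted p = 0.0378), 1.98 ± 0.37 at 6 h (0.000672) and 2.38 ± 0.37 at 8 h (6.76e-05). Leaving out 0 h replicate 1, 4 h replicate 1 or 4 h replicate 2 ended the 4 h call (1.01, 1.47 and 0.88, adjusted p = 0.139, 0.0603 and 0.193). Ddb1, which pairs with Ddb2 in a ubiquitin ligase, read 733 and 825 at 0 h, 696 and 729.7 at 2 h, 774 and 701 at 4 h, 665 and 716 at 6 h, and 634 and 701 at 8 h. Its 8 h values were under both 0 h values but the change of -0.22 ± 0.13 did not pass (adjusted p = 0.189). Per kilobase the mean ribosome-bound value of Ddb1 was 175 at 0 h, the highest of any member.

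Ercc3, a helicase of the TFIIH complex that opens DNA at lesions and promoters, was listed at 108 and 117 at 0 h, 90.2 and 116 at 2 h, 165 and 94.8 at 4 h, 89 and 107 at 6 h, and 64.2 and 60.7 at 8 h. Both 8 h values were below all other libraries. The fall was -0.84 ± 0.23 (adjusted p = 0.00801) and -0.80 (adjusted p = 0.0539) without 8 h replicate 2. Ercc5, the nuclease that cuts on one side of the lesion, Ercc6, which acts on stalled transcription, Ercc6l and Ercc6l2 did not pass at any time, with changes of -0.31, 0.10, -0.17 and 0.52 at 8 h and adjusted p of 0.341, 0.795, 0.463 and 0.172.

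Among the Fanconi genes 1 of 8 rose at 8 h and none fell, with a median change of 0.26. Fancm, the translocase that recognises a blocked fork (chr12:65075603-65132058), read 71.4 and 74.7 at 0 h, 90.7 and 62.9 at 2 h, 101 and 90.1 at 4 h, 94.2 and 119 at 6 h, and 124 and 136 at 8 h. All libraries from 4 h on exceeded both 0 h libraries. The change at 8 h was 0.82 ± 0.21 (adjusted p = 0.00453) and 0.50 (adjusted p = 0.063) with the length and GC correction. Fancl, the ubiquitin ligase of the pathway, was highest at 2 and 4 h and lowest at 0 and 8 h, with 3.58 and 4.25 at 0 h, 10.4 and 15.9 at 2 h, 17.6 and 12 at 4 h, 12 and 4.52 at 6 h, and 3.82 and 3.88 at 8 h. Its rise at 4 h was 1.66 ± 0.52 (adjusted p = 0.0368), a call lost when any 1 of the 4 libraries was left out (1.41 to 1.92, adjusted p 0.0521 to 0.219). On ribosomes Fancl was below 10 at 0 h and 8 h, and genes that stayed below 10 throughout were left out. It was therefore listed only because of its higher values in between, so its 4 h rise is tied to that selection. Fancd2, which is ubiquitinated by Fancl, stood at 95.7 and 79.8 at 0 h and 109 and 146 at 8 h, and did not pass (0.53 ± 0.21, adjusted p = 0.0528). Fancb (0.62), Fancc (-0.07), Fance (0.82), Fancg (0.00) and Fanci (-0.09) did not pass at 8 h either, with adjusted p between 0.219 and 0.998.

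The other PARP genes encode enzymes that add single ADP-ribose units or are little studied, and went both ways. Parp12, an interferon-linked family member, gave 502 and 437 at 0 h, 504 and 536 at 2 h, 422 and 475 at 4 h, 520.0 and 601 at 6 h, and 662 and 667 at 8 h. Its 8 h values were the highest of all, a rise of 0.50 ± 0.14 (adjusted p = 0.00768), or 0.40 (0.0534) without 0 h replicate 2. Parp8 read 76.6 and 49.1 at 0 h, 63.9 and 53.5 at 2 h, 38.6 and 39.1 at 4 h, 33.4 and 36.4 at 6 h, and 34.4 and 42.8 at 8 h. Values from 4 h on were below both 0 h values. The falls were -0.80 ± 0.26 at 6 h (adjusted p = 0.0299) and -0.66 ± 0.26 at 8 h (adjusted p = 0.0496). Without 0 h replicate 1 they were -0.48 (0.249) and -0.35 (0.37), and both were also lost without either replicate of their own time (adjusted p 0.0718 to 0.238). Parp4 (0.14, adjusted p = 0.733) and Parp6 (0.73, adjusted p = 0.284) did not pass at 8 h.

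**Figure D3:**
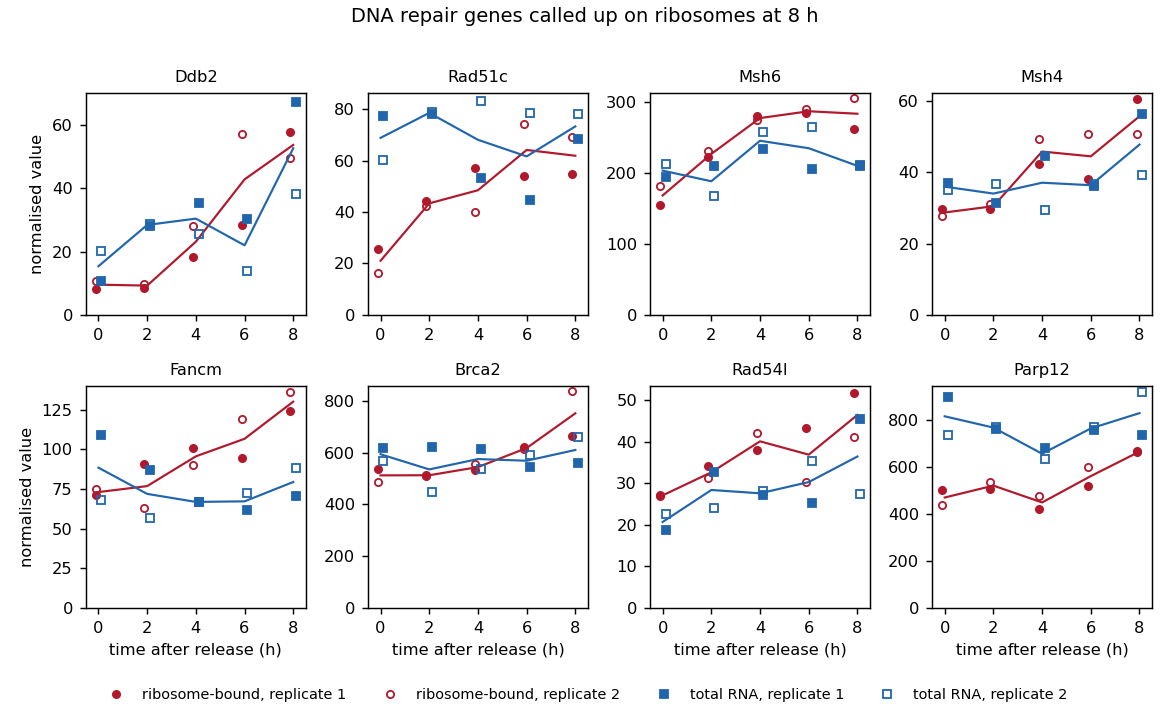
Normalised value in each library (points; filled, replicate 1; open, replicate 2) and group mean (line) over time after release for the 8 DNA repair genes that rose on ribosomes at 8 h, with ribosome-bound values in red and total RNA in blue, each panel from 0 on its own axis. Ddb2 rises in both RNA kinds, to 57.8 and 49.7 on ribosomes and 67.3 and 38.1 in total RNA at 8 h; ribosome-bound Rad51c rises from 25.8 and 16.3 to 54.6 and 69.1.

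In total RNA a single repair gene passed, Ddb2 at 8 h. By limma none of 46 members passed at 2, 4 or 6 h, when 0%, 0% and 0.202% of all genes did. The members with an unadjusted p below 0.05 numbered 2, 3 and 3 at these times, against 226, 347 and 613 of all genes. At 8 h 1 member passed, a rise (2.17%), beside 3.97% of all genes, of which 0.947% rose, and 9 members had an unadjusted p below 0.05 against 1478 of all genes. That member was Ddb2, with 10.6 and 20.2 at 0 h, 28.2 and 28.7 at 2 h, 35.3 and 25.6 at 4 h, 30.2 and 13.8 at 6 h, and 67.3 and 38.1 at 8 h. Both 8 h libraries were above all others, and 6 h replicate 2 lay within the 0 h range. The rise was 1.72 ± 0.38 (adjusted p = 0.0134). It was 1.28 (adjusted p = 0.262) without 0 h replicate 1 and 1.32 (adjusted p = 0.147) without 8 h replicate 1. The members closest behind were Ercc3 (-0.70 ± 0.22, adjusted p = 0.0783), with 74.1 and 85.4 at 0 h and 39.7 and 59.4 at 8 h, and Mre11a (-0.94 ± 0.30, adjusted p = 0.0936), with 56.3 and 28.9 at 0 h and 18 and 23.6 at 8 h. Without 8 h replicate 2 Ercc3 passed at -0.99 and Fance at -1.69, and without 0 h replicate 2 Mre11a passed at -1.41.

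Whether ribosome association moved beyond the total RNA was tested as the difference between both log2 changes in a fit over all 20 libraries. None of 45 members passed at 2 or 4 h by limma, where 0.0953% and 5.1% of all genes did; 5 and 9 members had an unadjusted p below 0.05. At 6 h 3 passed, 1 with a more positive change on ribosomes and 2 with a more negative one, beside 11.7% of all genes (7.34% and 4.37%). At 8 h 9 passed, or 20% of members beside 21% of all genes. Of these 3 were more positive and 6 more negative, where the shares of all genes were 11.6% and 9.43%.

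Rad51c had the largest positive difference of the 9. Its total RNA measured 77.3 and 60.3 at 0 h, 78 and 79 at 2 h, 53.1 and 83 at 4 h, 44.6 and 78.6 at 6 h, and 68.4 and 78.1 at 8 h, overlapping the 0 h range at each of 4, 6 and 8 h while the ribosome-bound values rose. The difference was 1.78 ± 0.40 at 6 h (adjusted p = 0.00471) and 1.44 ± 0.40 at 8 h (adjusted p = 0.0126). The 8 h call was lost without ribosome-bound 0 h replicate 2 (1.13, adjusted p = 0.0642), ribosome-bound 8 h replicate 2 (1.27, 0.0621) or total RNA 0 h replicate 1 (1.26, 0.0662). Msh6 in total RNA was 194 and 212 at 0 h, 209 and 167 at 2 h, 233 and 257 at 4 h, 205 and 264 at 6 h, and 210.4 and 209 at 8 h, the last within the 0 h range. Its difference of 0.70 ± 0.22 at 8 h had an adjusted p of 0.0235, which lay between 0.0503 and 0.108 without ribosome-bound 0 h replicate 1 or 8 h replicate 2, or without total RNA 0 h replicate 2 or either 8 h replicate. For Fancm, total RNA gave 109 and 67.8 at 0 h, 86.8 and 57 at 2 h, 66.6 and 67.1 at 4 h, 61.7 and 72.7 at 6 h, and 70.8 and 88 at 8 h, with the 8 h values inside the wide 0 h range. The difference of 0.94 ± 0.33 (adjusted p = 0.0466) was lost without any 1 of 6 of the 8 libraries at 0 and 8 h, that is all except the second total RNA replicate of each time (0.61 to 1.00, adjusted p 0.068 to 0.27), and with the replicate number as a block (adjusted p = 0.0566).

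Xrcc5, Xrcc1 and Atr had the smallest adjusted p among the 6 members with a more negative change on ribosomes than in total RNA. The total RNA of Xrcc5 measured 173 and 174 at 0 h, 209 and 186 at 2 h, 165 and 160.2 at 4 h, 127 and 172 at 6 h, and 171 and 136 at 8 h, slightly below 0 h at the last 3 times. The difference at 8 h was -1.06 ± 0.23 (adjusted p = 0.00176). Xrcc1 read 87.1 and 71.1 in total RNA at 0 h, 71.6 and 76.1 at 2 h, 55.4 and 71.9 at 4 h, 79.6 and 73.5 at 6 h, and 71.1 and 75.9 at 8 h, where all but 4 h replicate 1 lay within or at the edge of the 0 h range. Its difference was -0.86 ± 0.28 at 6 h (adjusted p = 0.0414) and -1.19 ± 0.28 at 8 h (adjusted p = 0.00293). The 6 h call was lost without any 1 of its 8 libraries (-0.72 to -1.01, adjusted p 0.0501 to 0.159). Atr in total RNA was 76.7 and 79.6 at 0 h, 87.2 and 81.6 at 2 h, 91 and 89.8 at 4 h, 74.4 and 70.8 at 6 h, and 90.1 and 125 at 8 h, above the 0 h range at 2, 4 and 8 h. Its difference was -1.09 ± 0.30 (adjusted p = 0.0105), and it was -0.88, -0.97 and -0.85 (adjusted p = 0.0548, 0.0517 and 0.0635) without ribosome-bound 0 h replicate 2, ribosome-bound 8 h replicate 2 and total RNA 8 h replicate 2.

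Atm had the largest difference of the 9 at 8 h, -1.67 ± 0.50 (adjusted p = 0.019). Its total RNA was 14.8 and 11 at 0 h and 24.6 and 16.4 at 8 h, a change of 0.62 ± 0.39 that did not pass (adjusted p = 0.412), against the fall on ribosomes. The difference was lost without ribosome-bound 8 h replicate 2 (-1.62, adjusted p = 0.0574), total RNA 0 h replicate 2 (-1.47, 0.0765) or total RNA 8 h replicate 1 (-1.39, 0.0876). Parp8 gave -1.43 ± 0.35 at 6 h (adjusted p = 0.00804) and -1.14 ± 0.35 at 8 h (adjusted p = 0.0213), with total RNA of 48.9 and 33.7 at 0 h, 64.6 and 62.4 at 6 h and 65.4 and 49.6 at 8 h. The 6 h call was lost without ribosome-bound 0 h replicate 1 (adjusted p = 0.0507) or total RNA 0 h replicate 2 (0.0601), and the 8 h call without either of these, ribosome-bound 8 h replicate 1 or total RNA 8 h replicate 1 (0.078 to 0.118). Rad50 gave -0.63 ± 0.19 at 8 h (adjusted p = 0.0184), with total RNA of 546 and 497 at 0 h and 533 and 484 at 8 h. This was lost without ribosome-bound 8 h replicate 1 (-0.49, adjusted p = 0.0949), total RNA 0 h replicate 2 (-0.56, 0.0778) or total RNA 8 h replicate 1 (-0.56, 0.0731). Ddb2, which rose in both RNA kinds, had a difference of 0.66 ± 0.56 at 8 h that did not pass (adjusted p = 0.434), and Brca2 (0.51 ± 0.21, adjusted p = 0.0821) and Xrcc6 (-1.38 ± 0.54, adjusted p = 0.0717) also did not pass.

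**Figure D4:**
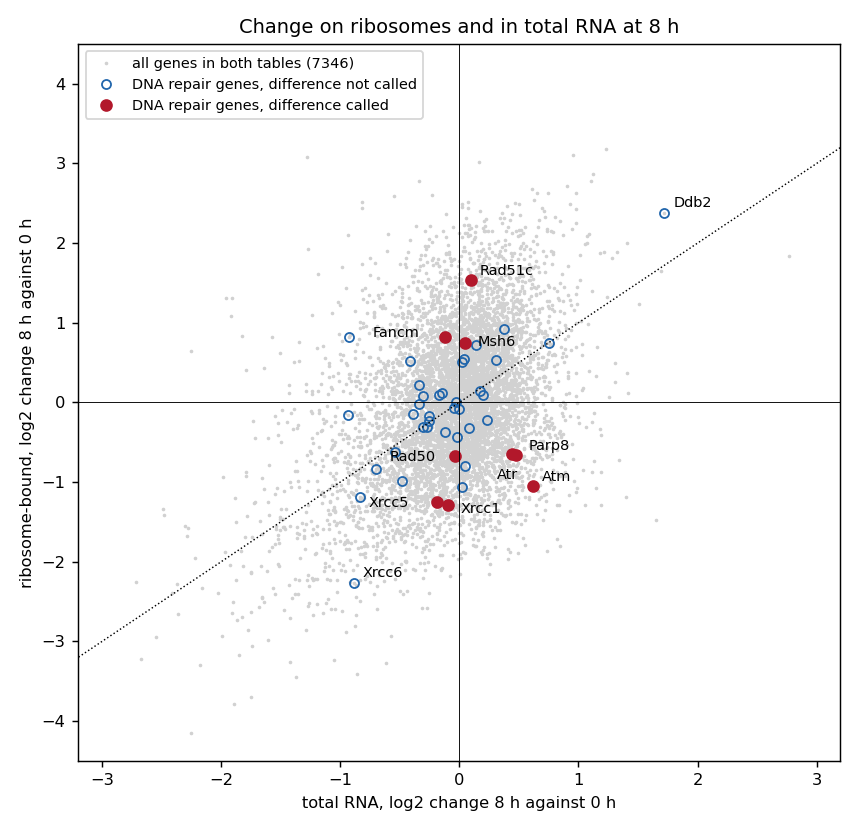
Log2 change at 8 h against 0 h in total RNA (horizontal) and on ribosomes (vertical) for the 7346 genes listed in both tables (grey), with the 45 DNA repair genes in colour; the dotted line marks equal change. Filled red points are the 9 repair genes whose changes differ at adjusted p below 0.05, Rad51c, Fancm and Msh6 above the line and 6 below it, and Ddb2 lies at 1.72 and 2.38.

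The ratio of ribosome-bound to total RNA values can be described for each gene, although the tables were scaled separately and the ratio has no absolute meaning. At 0 h it ran from 0.306 for Rad51c to 2.53 for Atr. Over time the ratio of Rad51c went through 0.552, 0.712 and 1.04 to 0.844 at 8 h. That of Atr was 1.16 at 8 h, that of Xrcc5 went from 2.2 to 1.05, and that of Atm from 1.88 to 0.545.

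Other genes of the same pathways were read from 7 lists of repair genes outside the symbol rule, with 120 genes listed on ribosomes. At 8 h 36 rose and 29 fell, with a median of 0.14, beside the 20.2% and 21.8% of all genes given above. Crosslink repair and translesion synthesis leaned to rising, 9 of 18 up and 1 down with a median of 0.45, as did break signalling, 8 of 22 up and 4 down with a median of 0.41. In the first list Ube2t, the E2 enzyme that works with Fancl, went from 90.2 and 77.4 to 307 and 372 (2.00 ± 0.17, adjusted p = 1.22e-07). The 1 gene of that list that fell was Mad2l2 (-0.75 ± 0.27, adjusted p = 0.0325). In the second list Hus1, a subunit of the checkpoint clamp, went from 151 and 162 to 428 and 487 (1.54 ± 0.15, adjusted p = 4.8e-07). Trp53bp1, which favours end joining, went from 103 and 114 to 326 and 366 (1.66 ± 0.17, adjusted p = 9.04e-07). Among the 4 that fell were Uimc1 (-1.29 ± 0.34, adjusted p = 0.0056) and Babam1 (-1.32 ± 0.38, adjusted p = 0.0105). Babam1 did not pass under the length and GC correction (-0.72, adjusted p = 0.154). Recombination and resolution genes went both ways, 10 of 30 up and 8 down. Wrn, a helicase related to Blm, rose by 1.61 ± 0.18 (adjusted p = 2.65e-06). Mus81, a nuclease that cuts joined strands, fell (-2.14 ± 0.36, adjusted p = 0.000162), with 30.6 and 52.8 at 0 h and 9.69 and 7.23 at 8 h. Its 8 h values were below 10, so higher earlier values brought it into the ribosome-bound data, and this fall is tied to that selection. By limma Mus81 also fell in total RNA (-1.75, adjusted p = 0.00203), and the difference between both changes did not pass (-0.38, 0.593). For Wrn total RNA did not pass (0.14, 0.711) and the difference did (1.47, 6.56e-05).

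Mismatch repair partners leaned to falling, with 1 of 8 up, 4 down and a median of -0.65. The 1 that rose was Pms1 (0.76 ± 0.22, adjusted p = 0.0114). The clamp loader subunits Rfc3 and Rfc2 changed by -1.76 ± 0.39 and -2.04 ± 0.47 (adjusted p = 0.00146 and 0.00219), from 23.1 and 26.2 to 8.57 and 4.98 and from 19.9 and 25.4 to 6.88 and 3.14. Both were below 10 in the 8 h libraries, so only higher earlier values could bring them into the data. The falls of Rfc3 and Rfc2 are tied to that selection. Base excision and single-strand repair genes had 3 of 17 up and 5 down. Hpf1, the cofactor that lets Parp1 modify serines, rose from 212 and 252 to 804 and 935 (1.90 ± 0.15, adjusted p = 3.55e-08), while Parp1 itself fell. Ung, the uracil glycosylase, fell from 206 and 203 to 80.4 and 107 (-1.14 ± 0.21, adjusted p = 0.000342). It also fell in total RNA (-0.90, adjusted p = 0.0264), and its difference did not pass (-0.24, 0.651). Nucleotide excision genes had 4 of 18 up and 6 down, with Gtf2h3, a TFIIH subunit like Ercc3, going from 7.14 and 2.41 to 29.7 and 41.8 (2.78 ± 0.51, adjusted p = 0.000354) and Rpa2, which coats single-stranded DNA, from 117 and 187 to 31.3 and 23.6 (-2.40 ± 0.23, adjusted p = 4.1e-07). Gtf2h3 was below 10 in both 0 h libraries, so only higher later values could bring it into the data. Its rise is tied to that selection. Rpa2 also fell in total RNA by limma (-1.36, adjusted p = 0.000567), and its difference passed (-1.04, 0.015). End joining partners gave 1 up and 1 down of 7. In total RNA 1 of the 122 listed genes rose and 5 fell, where 3.97% of all genes passed and 0.947% rose. For the difference 20 of 119 had a more positive and 11 a more negative change on ribosomes, beside 11.6% and 9.43% of all genes.

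Repair genes resembled all genes in length and differed in their annotated 3′ UTR. Their median transcript length was 3286 bases against 3299 for all ribosome-bound genes, their median GC content 46.4% against 49.1%, and their median 3′ UTR 378 bases against 1128. Over the 48 members the 8 h ribosome-bound change had a Spearman correlation of 0.08 with length, -0.10 with GC content and 0.11 with 3′ UTR length; over all genes the values were 0.23, -0.35 and 0.26. These correlations are across genes of the same libraries, which are not independent replicates. After the length and GC correction 6 members rose and 15 fell at 8 h, in place of 8 and 12.

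Exons of 22 of the 49 members overlap another annotated gene, and no source used here says whether the counting used strand, so reads of both genes cannot be told apart in the shared part. Ddb2 shares 652 of 2736 exon bases with Acp2 on the opposite strand, which has no values used here. Xrcc6 shares 344 of 4476 with Desi1, and Rad54b shares 2068 of 5782 with Fsbp on its own strand. Rad54l shares 1184 of 7706 with Lrrc41 on the opposite strand, which changed by -0.54 on ribosomes at 8 h (adjusted p = 0.105) while Rad54l rose. Msh6 shares 34 of 4346 with Fbxo11, which rose by 0.72 (adjusted p = 0.00118). Mre11a, which did not pass on ribosomes, shares 154 of 5927 with Ankrd49 on the opposite strand. Ankrd49 rose by 1.67 on ribosomes at 8 h (adjusted p = 0.000817).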

How the data were processed

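Ribosome-bound and total RNA were sequenced from the 20 oocyte libraries above. The submitters' processing notes list the mm10 genome and, without roles, edgeR, limma, HTSeq, HISAT2, Trimmomatic 0.36, SAMtools and FastQC; the type of RNA selection and strandedness are stated in no source used here. The authors deposited 1 table per RNA kind, whose signal values per gene are read counts scaled close to CPM (10 of 20 libraries sum to more than CPM would); values are whole multiples of 1 step per library within 0.01 read. Every listed gene reached a value of 10 in at least 1 library, so genes below that are not analysed here. The descriptions of the total RNA samples call them ribosome-bound; titles and design text were followed.

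Values were taken as log2(value + 1) and tested with limma 3.58.1 (R 4.3.3), with a mean-variance trend and Benjamini-Hochberg adjustment over all genes of a comparison, in 12 comparisons: 4 times against 0 h on ribosomes, in total RNA, and for the difference between them. All times entered each fit. A minimum value of 1 in at least 2 libraries removed no gene and all 49 members passed it. The fit was tested on simulated data. Coordinates and UTRs come from GENCODE vM21 (GRCm38), matched by gene identifier for all 49 members. The rule for members reads symbols only, but it and the lists and tests were chosen with earlier results of these data known. Genes given in full were a named group (Ddb2, Ddb1, Brca1, Brca2, Atm, Atr, Blm, Nbn, Mre11a) and, per role and direction, the 2 with the smallest adjusted p on ribosomes at 8 h, then the 3 leading in total RNA and for the difference; a few others with calls at 4 or 6 h were added. A few members count in the totals but are not reported here. Alternatives were a pseudocount of 5, a stricter filter, centred libraries, a replicate block, fits on the compared groups only, a length and GC correction, and leaving out each replicate.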

Additional observations from a re-analysis of the deposited data

Results flagged for a closer look

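The tested difference between the change on ribosomes and the change in total RNA against 0 h passed for 12 values among the 45 members in both tables, and these call for a closer look. At 6 h it was 1.78 for Rad51c, -1.43 for Parp8 and -0.86 for Xrcc1 on the log2 scale. At 8 h it was positive for Rad51c (1.44), Fancm (0.94) and Msh6 (0.70). It was negative at 8 h for Atm (-1.67), Xrcc1 (-1.19), Parp8 (-1.14), Atr (-1.09), Xrcc5 (-1.06) and Rad50 (-0.63). Of these 12, Rad51c at 6 h and Xrcc5 and Xrcc1 at 8 h held whichever library was left out, although Xrcc1 at 8 h had an adjusted p of 0.0538 by limma with a length and GC correction and a replicate block together. Groups of 2 libraries are too small to test for a single library far from the others.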

How the results depend on the processing

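Leaving out 1 library at a time moved the number of repair genes that passed most. On ribosomes the counts ran from 0 to 1 at 2 h, 1 to 4 at 4 h, 7 to 11 at 6 h and 11 to 18 at 8 h, where they were 0, 4, 11 and 20 with all libraries. The 1 at 4 h, without 4 h replicate 1, was Msh6; 2 passed at 4 h without 0 h replicate 1; the 7 at 6 h came without 6 h replicate 1; and the 11 at 8 h without 8 h replicate 2. In total RNA at 8 h the count ran from 0 (without 0 h replicate 1 or 8 h replicate 1) to 3 (without 8 h replicate 2), and for the difference between RNA kinds from 0 to 1 at 4 h, 1 to 4 at 6 h and 4 to 9 at 8 h, the 4 without ribosome-bound 8 h replicate 2 or total RNA 8 h replicate 1. The calls on ribosomes at 8 h that held under every setting tried were Ddb2, Rad51c, Msh6, Rad50, Xrcc5, Xrcc6, Xrcc1 and Parp1.

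Over 58 single-gene results and 674 alternative values, 565 kept direction and side of the threshold, 105 no longer passed, 2 newly passed (Brca1 with the length and GC correction, with and without the block) and 2 took the other sign, both Blm on ribosomes at 8 h, -0.26 with the length and GC correction alone or with the block. Centring libraries on their medians gave 10 up and 10 down at 8 h in place of 8 and 12, and the length and GC correction 6 and 15. Fits on the compared groups alone gave 16 on ribosomes, 1 in total RNA and 6 for the difference at 8 h.

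With the replicate number as a block 19 passed on ribosomes at 8 h (8 up, 11 down), 1 in total RNA and 8 for the difference. Samples with the same number did not deviate together, with correlations of -0.11 to 0.13 over 20 pairs of groups within an RNA kind and -0.084 to 0.036 over 5 pairs across kinds, so the numbers were not taken to pair the samples. The edgeR and DESeq2 alternatives and the comparison of their normalizations were not run, since the tables hold scaled values. With 2 libraries per group the precision is limited by replicate number, and genes below a value of 10 in every library are not analysed here.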
